A study of Mus musculus with 8 samples.

Results

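m6A peaks in the genes of the MAP kinase cascade and in the dual-specificity phosphatases (DUSPs) were described in mouse embryonic fibroblasts (MEFs) with and without nutrient starvation. Members were all entries of the 4 peak lists whose gene symbol begins with Map4k, Map3k, Map2k, Mapk followed by a digit, or Dusp. The symbol rule took in 158 of 38705 peaks, which lie in 46 of 9779 genes with a peak. Merging peaks of different libraries that overlap by at least 1 bp gave 88 member regions of 21168 regions in all. Of 73 protein-coding RefSeq genes whose symbols match the rule, 46 appear in the lists by that symbol and 27 do not, of which Map3k20 is listed by its older symbol Zak.

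The cells were wild type C57BL/6 MEFs, isolated from embryos at day 13.5 and used at passage 5 to 6. Control cells were untreated in full growth medium, and starved cells were held for 2 h in nutrient-deprived medium, with 2 replicates of each. Per replicate, an immunoprecipitated (IP) library made with an antibody against N6-methyladenosine (m6A) was sequenced beside an input library without antibody, which gave 8 samples. Peaks had been called by the authors in each of the 4 IP libraries against its own input. The study calls the replicates biological, while the labels do not say whether they came from separate cultures or embryos, and p-values measure the spread between these samples.

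MAP kinases are the last step of relays in which a MAP3K phosphorylates a MAP2K, which then phosphorylates a MAPK on a threonine and a tyrosine. MAP4Ks act upstream of some MAP3Ks, and scaffold proteins hold kinases of a relay together. Classical DUSPs, also called MAP kinase phosphatases (MKPs), remove both phosphates, and several of their genes are themselves induced by MAPK signalling, which makes them feedback inhibitors. The ERK branch is known for growth factor responses, and the JNK and p38 branches for stress responses. m6A is a methyl mark on adenosines of mRNA, found most often near stop codons and in long exons, in a sequence context whose best known core is GGAC.

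The sequences below are 24-base stretches of the transcribed strand, 1 for each of 12 member regions among those that were called in 1 group only or whose fold enrichments did not overlap between groups. Each is centred on the GGAC nearest to the middle of the region's strongest peak, or on the nearest AGAC or GAAC in the 3 regions without GGAC, and capitals mark that core. Coordinates are on mm10, the sequence is that of RefSeq GRCm38.p6, and a match to the core is not a mapped m6A site. Labels name the place of the core. In Dusp16 the core lies 6 nt past the middle of the stop codon, which the printed stretch also holds.
Map4k4, 5′ UTR of exon 1, chr1:39901103-39901126, plus strand: cgctccgaccGGACgacaagccgc
Map4k4, coding exon 12, chr1:39990170-39990193, plus strand: ggctctgcggAGACagcagcttct
Map2k3, 3′ UTR, chr11:60952391-60952414, plus strand: ggtctctgagGGACacactgtcct
Map2k4, 3′ UTR, chr11:65690442-65690465, minus strand: cttttgtgatGAACatattcatga
Mapk6, coding part of exon 2, chr9:75398058-75398081, minus strand: ctaggtacatGGACttaaaaccat
Mapk6, coding part of exon 6, chr9:75388610-75388633, minus strand: ttcatcgcggGGACcattcagctc
Mapk1ip1l, 3′ UTR, chr14:47320020-47320043, plus strand: catgatctaaGGACagattcttgc
Dusp1, 5′ UTR of exon 1, chr17:26508384-26508407, minus strand: tagggccacaGGACaccgcacaag
Dusp6, coding exon 1, chr10:99263792-99263815, plus strand: ttctgctgatGGACtgccgaccac
Dusp16, 3′ UTR, chr6:134717868-134717891, minus strand: tctcttgagaAGACctcgtcgctt
Dusp3, 3′ UTR, chr11:101973710-101973733, minus strand: gtccccttggGGACagaaggaaaa
Dusp23, 3′ UTR, chr1:172631525-172631548, minus strand: gactcctattGGACaaaagtagtc

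The 3 cores were counted on the transcribed strand alone, in 200 bp of spliced transcript at the centre of each of the 149 member peaks that could be placed on a coding transcript. No match of 1 core can overlap a match of another. GGAC was in 66.4% of member windows and 63.5% of the windows of all peaks. AGAC was in 62.4% of member windows against 63.1%, and GAAC in 59.1% against 57.0%. Member windows thus held each core about as often as windows of the whole series did. By tier, GGAC was in 5 of 15 MAP2K windows, 23 of 30 MAP3K windows, 20 of 31 windows of classical MKPs and 15 of 20 windows of atypical DUSPs.

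The lists held 8974 to 10103 peaks per IP library. The median fold enrichment, the ratio of IP signal to local input background that the authors deposited with each peak, was 12.2 and 12.3 over all peaks of the control libraries and 14.6 and 14.7 over those of the starved libraries. The score of a peak, its p-value as log10 multiplied by -10, was deposited with an upper limit of 3100, reached by 17.0% and 13.2% of all control peaks and by 28.5% and 27.8% of all starved peaks. Reads and depths are not in the files, so the depth behind each peak is unknown, and an uncalled site can still carry m6A. The files used here give no transcript level either, so where a peak is missing, fewer transcripts of a gene and less m6A per transcript cannot be told apart. Peaks lay in 8 of 10 fibroblast marker genes (10, 17, 16 and 15 peaks in the 4 libraries; none in Col1a1 or Vim) and in 5 of 10 markers of other cell types (1, 3, 2 and 0 peaks; none in Epcam, Cdh1, Ptprc, Pecam1 or Cdh5). Values of the 4 libraries are given throughout in the order control replicate 1, control replicate 2, starved replicate 1, starved replicate 2.

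**Figure D1:**
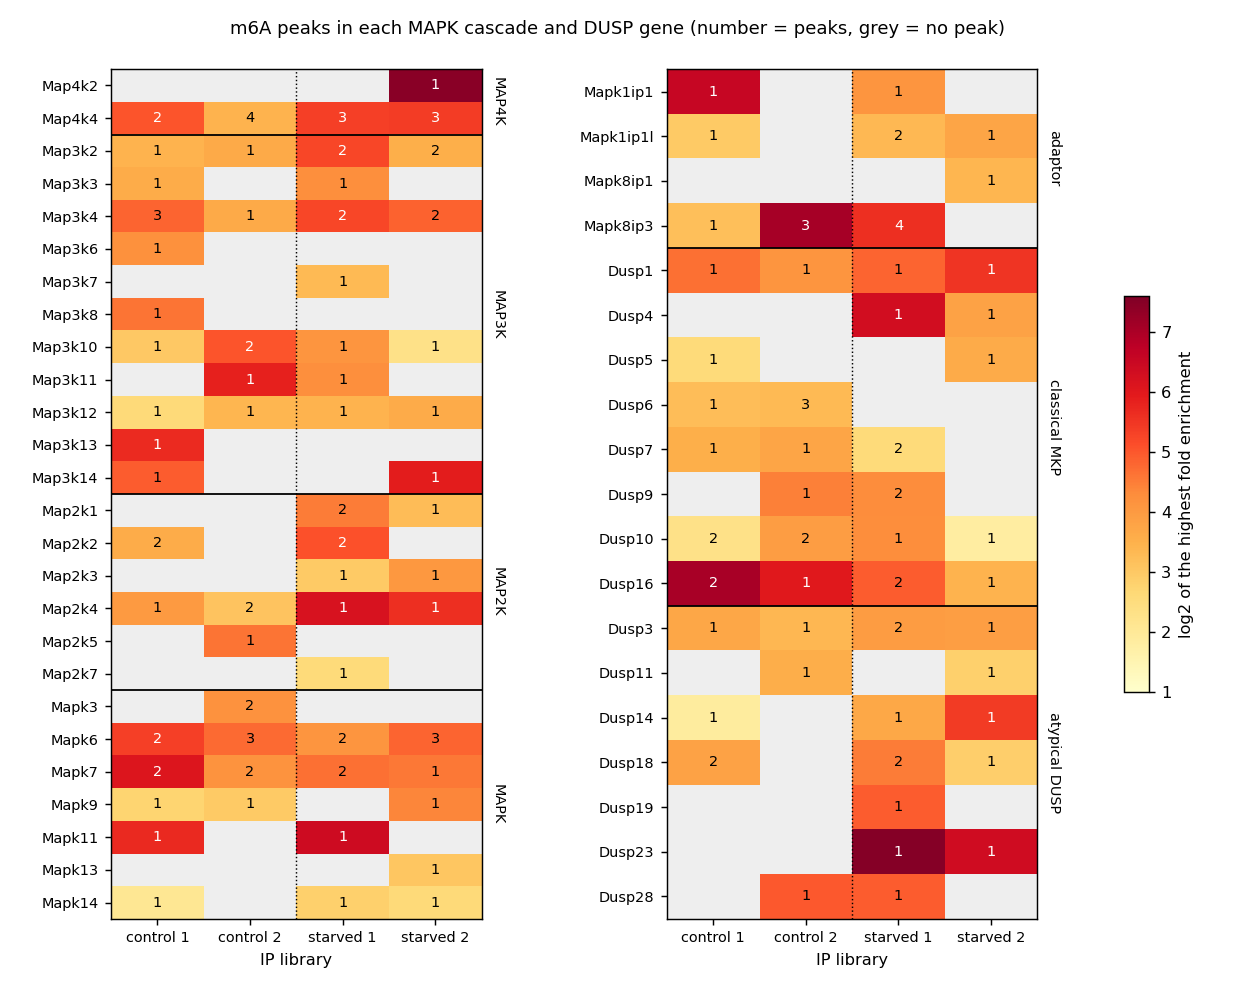
Each row is a member gene (1 gene is not shown) and each column an IP library, ordered by tier. The colour is the log2 of the highest fold enrichment of the gene's peaks in that library, the number is its count of peaks and grey marks no peak. 12 genes (26.1%) have a peak in all 4 libraries and 11 (23.9%) in only 1, beside 29.2% and 27.9% of all genes with a peak, and Dusp23 and Map4k2 hold the highest fold enrichments (182.96 and 174.55).

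Member peaks numbered 39, 37, 49 and 33 in the 4 libraries. Both the most and the fewest member peaks were thus in starved libraries, and the means of 38 ± 1.41 and 41 ± 11.3 (SD, n = 2 each) differed by less than the spread (two-sided exact permutation test, in which 4 libraries allow 3 groupings, p = 1). Without starved replicate 1 the difference of 3 peaks turned to -5. Per 1000 peaks of the library, members made up 3.86, 3.75, 5.02 and 3.68. The genes with a peak numbered 30, 23, 32 and 27 (26.5 ± 4.95 against 29.5 ± 3.54, exact permutation p = 0.667). That difference was -0.5 without control replicate 2, which had the fewest genes. The smallest p that this design allows is 0.333, so no comparison between the groups could reach 0.05.

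The median fold enrichment of member peaks was 12.04, 10.8, 17.12 and 12.29. Both starved medians were above both control medians, by a mean of 0.35 on the log2 scale (3.51 ± 0.11 against 3.86 ± 0.34, n = 2 each, exact permutation p = 0.333), and by 0.11 without starved replicate 1. Over all peaks the same difference was 0.26. The gap between the members' median and that of all peaks of the same library was -0.02, -0.18, 0.23 and -0.26 on the log2 scale. Members were above the rest of the library in starved replicate 1 alone, and the gap did not differ from 0 (mean -0.06, two-sided exact sign flip over 4 libraries p = 0.625, with 0.125 as the smallest possible). The share of member peaks at the score limit was 23.1%, 8.11%, 24.5% and 33.3%, a difference of 13.3 percentage points between group means (15.6 ± 10.6 against 28.9 ± 6.25, exact permutation p = 0.333) beside 13.0 points over all peaks. It was 5.83 points without control replicate 2 and 20.8 points without control replicate 1. Control replicate 2 stood lowest there, with 3 member peaks at the limit against 9 to 12 in the other libraries.

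**Figure D2:**
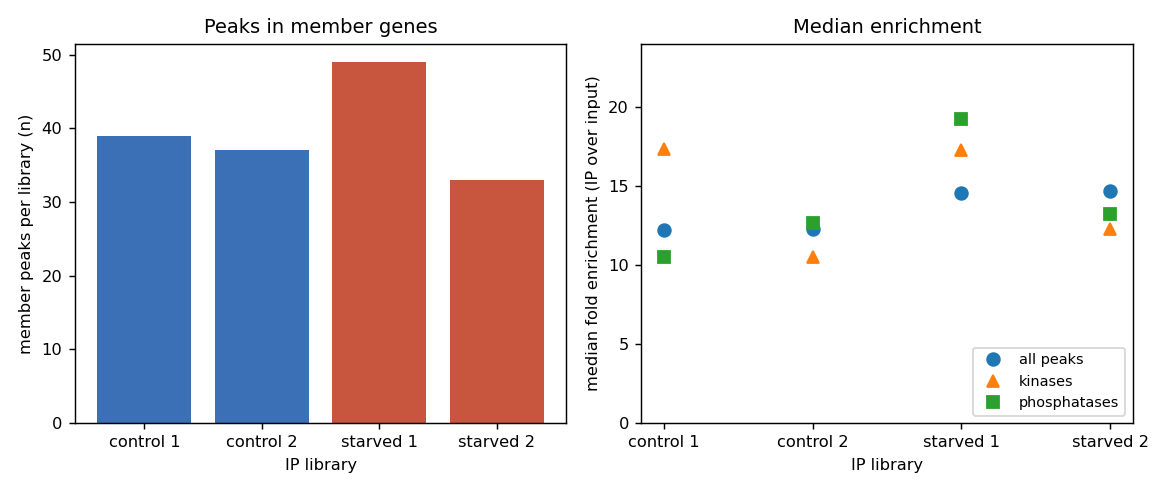
The left panel gives the number of member peaks in each IP library, and the right panel the median fold enrichment of all peaks (circles), of peaks in the 4 kinase tiers (triangles) and of DUSP peaks (squares). Starved replicate 1 has the most member peaks (49), and the kinase and DUSP medians lie on both sides of the median of all peaks.

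Kinases and phosphatases were compared within each library. The 4 kinase tiers held 24, 22, 25 and 21 peaks, and the DUSPs 12, 12, 17 and 10. Kinase numbers hardly moved between libraries, and the surplus of starved replicate 1 lay in the DUSPs and in the 4 genes of scaffold and MAPK-interacting proteins (3, 3, 7 and 2 peaks). The median fold enrichment of kinase peaks was 17.32, 10.475, 17.31 and 12.29, and that of DUSP peaks 10.495, 12.64, 19.26 and 13.21. The DUSP median was the lower of the pair in control replicate 1 and the higher in the other 3 libraries, and the mean log2 difference of -0.05 ± 0.46 (SD over 4 libraries) did not differ from 0 (exact sign flip p = 1). Without control replicate 1 it was 0.17. The difference itself did not separate the groups (exact permutation p = 1).

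Peaks of phosphatases and kinases lay at different places along the mRNA, which is given here as a description without a test. The centre of the peak lay in the last exon for 83.3%, 58.3%, 82.4% and 80.0% of placed DUSP peaks, and for 63.6%, 33.3%, 54.2% and 57.1% of placed kinase peaks. Over all placed peaks the shares were 62.0%, 58.8%, 58.5% and 60.5%. DUSP peaks were the more often in the last exon in each of the 4 libraries, but in control replicate 2 they stood at the share of all peaks. DUSP transcripts are short in exons, with a median of 4 (2 to 9, 15 genes) against 12 (6 to 32, 25 genes) in the kinases, and the part of exon number in this difference was not tested. Pooled over libraries, 19 of 20 peaks of atypical DUSPs and 11 of 15 of MAP2Ks lay in the last exon, against 14 of 30 of MAP3Ks and 15 of 30 of MAPKs. Peaks of 1 gene recur between libraries, so these pooled counts have no test.

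Few member peaks lay within 100 nt of the stop codon. Their share was 8.11%, 8.82%, 8.89% and 9.09% of placed member peaks (3, 3, 4 and 3 peaks) against 13.0%, 12.3%, 12.2% and 12.5% of all placed peaks. Members were below the whole list in 4 of 4 libraries, with a mean difference (members minus all) of -3.77 ± 0.75 percentage points. The exact sign flip gave p = 0.125, the smallest it can give. Pooled over libraries, kinases held 4 such peaks of 88 (4.55%) and DUSPs 7 of 51 (13.7%), beside 12.5% of all placed peaks. In these pooled counts the lower share was seen in kinases and not in DUSPs. The counts are small, peaks of 1 gene recur between libraries, and only the 100 nt window was split this way, so this is a description without a test. Between control and starved libraries the share differed by 0.52 points (8.47 ± 0.51 against 8.99 ± 0.14, n = 2 each, exact permutation p = 0.333), and with a window of 200 nt the difference turned to -9.64 points (p = 0.333).

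Control replicate 2 stood apart from the other 3 libraries in where its member peaks lay. The coding sequence held 58.8% of its placed member peaks, against 35.1%, 33.3% and 30.3% in control replicate 1 and starved replicates 1 and 2, and the last exon held 44.1% of them against 70.3%, 68.9% and 66.7%. In that library 9 member peaks covered an exon from end to end, against 2, 6 and 2. Over all peaks no such gap was seen, with 44.8% to 47.3% of peaks in the coding sequence. The group difference in coding share of -15.2 percentage points (exact permutation p = 0.333) therefore rests mainly on control replicate 2, without which control stood at 35.1%.

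**Figure D3:**
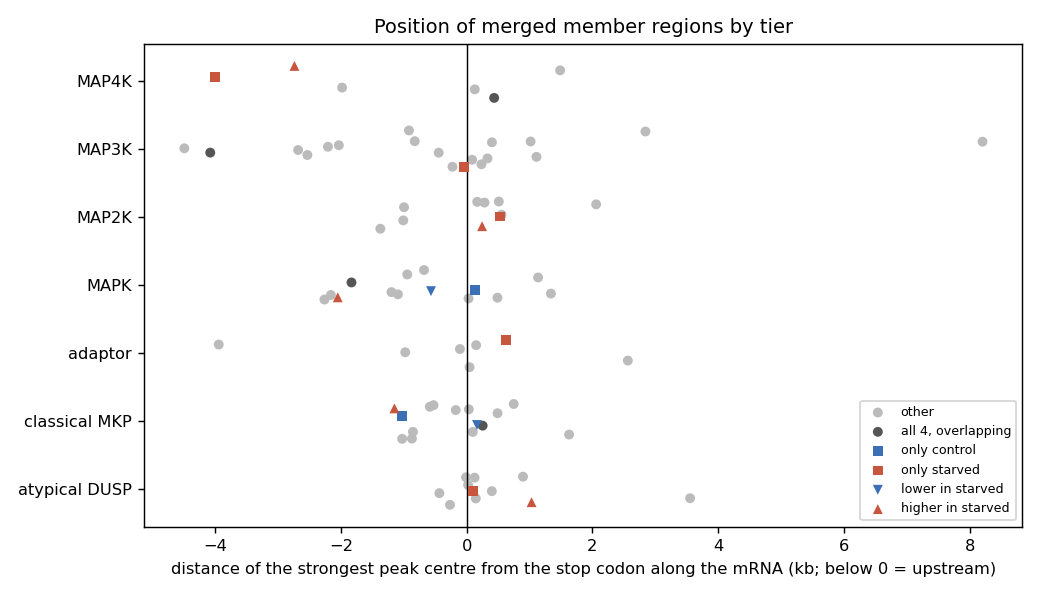
Each point is a merged member region, placed by the distance along the mRNA (kb) between the stop codon and the centre of its strongest peak, with values below 0 upstream, and spread vertically within its tier for legibility. Squares mark regions called in the 2 libraries of a single group, triangles regions in all 4 libraries whose groups do not overlap. Kinase regions reach from about -4 kb into long 3′ UTRs, though many of them lie within about 1 kb of the stop codon, as most DUSP regions do.

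Regions were then compared by the libraries that called them. Of the 88 member regions, 49 (55.7%) were called in 1 library, 23 (26.1%) in 2, 5 (5.68%) in 3 and 11 (12.5%) in all 4, beside 56.2%, 21.0%, 12.2% and 10.7% of all regions. Called in both starved and in neither control library were 5 member regions (5.68%), where the background over all regions was 3.2%. These were in Map4k4, Map3k2, Map2k3, Mapk1ip1l and Dusp23, of which the regions of Mapk1ip1l and Dusp23 kept both peaks when a deposited false discovery rate under 20% was required. Called in both control and in neither starved library were 2 member regions (2.27%), where the background was 4.15%. Of these the one in Dusp6 is described. Both counts are small and near these background shares. A region lost to 1 weak library leaves these classes. With a library left out, 1 call in a group can be enough to meet the rule. The counts then ranged from 5 to 22 for starved and from 2 to 19 for control. The shares over all regions rose too, up to 19.9% for starved and 22.4% for control.

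Among the 11 member regions called in all 4 libraries, both starved fold enrichments lay above both control values in 5, where the background over the 2257 such regions was 22.9%. They were in Map4k4, Map2k4, Mapk6, Dusp1 and Dusp3. Both starved values lay below both control values in 2, in Mapk6 and Dusp16, where the background was 18%. The groups overlapped in the other 4. The median difference between starved and control was 0.39 on the log2 scale over the 11 member regions, with 7 above 0, and 0.10 over all 2257, with 54.2% above 0. For each of the 7 regions whose groups did not overlap the exact permutation p was 0.333, the smallest possible, so none passes a threshold of 0.05.

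**Figure D4:**
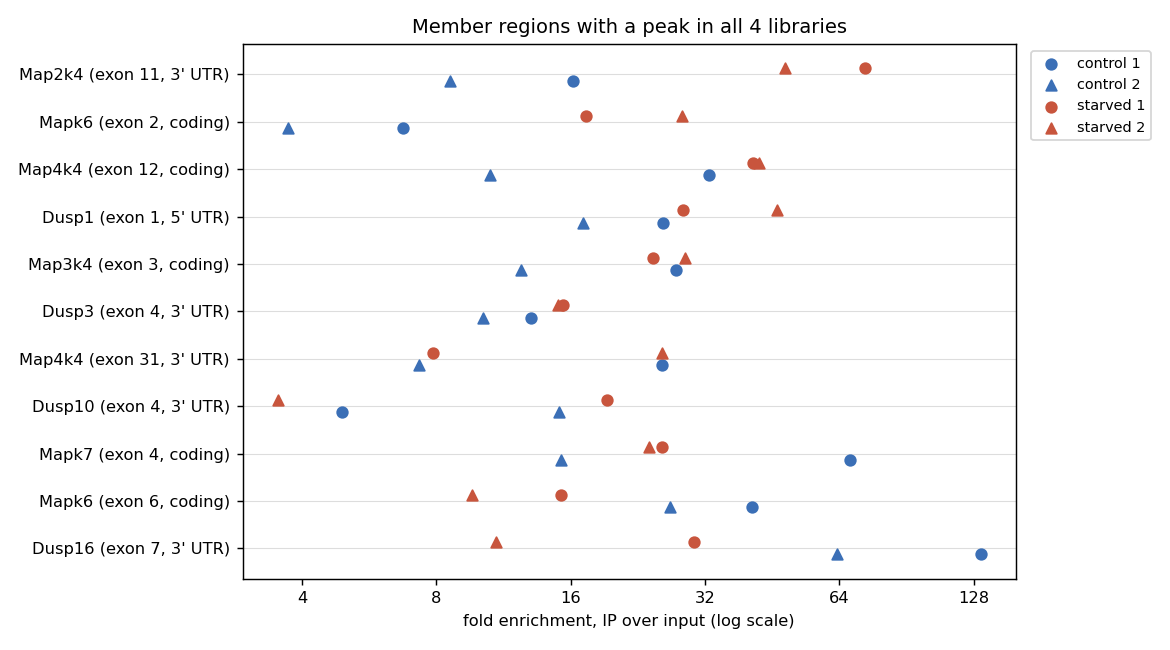
Fold enrichment (IP over input, log axis) of the 11 member regions with a peak in all 4 libraries, 1 point per library, blue for control and red for starved, circles for replicate 1 and triangles for replicate 2. The top rows Map2k4 and Mapk6 exon 2 and the bottom rows Mapk6 exon 6 and Dusp16 show the groups well apart, in opposite directions.

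At the top of the cascade, 2 of 5 MAP4K genes had a peak. Map4k4, a Ste20-like kinase that acts upstream of JNK, held 12 peaks in 5 regions and was the member with the most peaks. Its exon 12 of 31, a coding exon of 211 bp at chr1:39990089-39990299, was called end to end in all 4 libraries at fold enrichments of 32.73, 10.56, 40.97 and 42.26. The starved libraries lay close together and above both control libraries, which were far apart. On the log2 scale the control mean was 4.22 ± 1.15 and the starved mean 5.38 ± 0.03 (SD, n = 2 each), which is a difference of 1.16. It was 0.35 without control replicate 2 and 1.98 without control replicate 1, and the peak of control replicate 2 had a false discovery rate of 21.6%. Exon 1 of Map4k4, which holds the 5′ UTR, was called in the starved libraries alone at 5.44 and 4.30, with scores of 89.4 and 105 and false discovery rates of 58.6% and 58.8%. The region in its 3′ UTR (25.71, 7.31, 7.87 and 25.68) showed no order by group. Map4k2, another kinase of this tier, was called once, in starved replicate 2, at 174.55 in the 3′ UTR 130 nt past the stop codon.

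Of 18 MAP3K genes, 11 had a peak, in 21 regions, of which 12 were called in a single library. Map3k2, which acts upstream of the ERK5 branch, held 4 regions. Its stop codon region (chr18:32228123-32228470) was called in the starved libraries alone, at 37.57 and 11.61, while a region 8205 nt past the stop codon was called once in each group, at 10.75 in control replicate 1 and 4.79 in starved replicate 2. Map3k12, known for its role in neurons, also held 4 regions, each called in a different library, at 6.05, 10.39, 10.84 and 12.29. A gene can thus have a peak in every library and share no region between them.

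Map3k4, a kinase of the p38 and JNK branches that GADD45 proteins bind, was the only MAP3K among the members with a region in all 4 libraries. That region filled coding exon 3 of 27 (chr17:12270863-12272220) at 27.56, 12.41, 24.47 and 28.94, with control replicate 2 low and the other 3 libraries alike. The difference of 0.53 on the log2 scale was within the spread (exact permutation p = 0.667). Map3k14, the NF-κB-inducing kinase, had the highest fold enrichment of the tier, 30.59 in control replicate 1 and 59.98 in starved replicate 2, in its 3′ UTR. The remaining MAP3K genes with a peak, Map3k3, Map3k6, Map3k7, Map3k8, Map3k10, Map3k11 and Map3k13, ranged from 4.89 to 57.14. Of these Map3k10 alone had a peak in all 4 libraries.

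Of 7 MAP2K genes, 6 had a peak. Map2k4, which activates JNK and also p38, showed the widest gap between the groups among regions that were higher in starved cells. Its 3′ UTR region (chr11:65690088-65690804) lies in exon 11 of 11 and was called at 16.18, 8.61, 73.13 and 48.47. Both starved values were well above both control values (3.56 ± 0.64 against 5.90 ± 0.42 in log2, n = 2 each), a difference of 2.33 that stayed between 1.88 and 2.79 with any library left out. The region holds no GGAC. Map2k3, an activator of p38, was called in the starved libraries alone, at 7.87 and 16.71 in its 3′ UTR (chr11:60951764-60952775), a region with 8 GGAC.

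The MEK genes Map2k1 and Map2k2, which activate ERK, had peaks that seldom recurred. Map2k1 was called in the starved libraries alone, but in different places, at 22.82 and 2.90 in starved replicate 1 and at 9.55 in starved replicate 2. In Map2k2, coding exon 2 was called in replicate 1 of each group at 12.04 and 6.81, and 2 places in the 3′ UTR once each, at 5.17 in control and 33.74 in starved replicate 1. No MEK region was shared by both replicates of a group. Map2k5 and Map2k7 were called once each, at 24.58 in control replicate 2 and 5.92 in starved replicate 1.

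Of 13 MAPK genes, 8 had a peak. Among the MAPKs best known for stress responses, Mapk8 (JNK1) had none, Mapk9 (JNK2) was called at its stop codon once in each group (6.67 and 20.81) and once in coding exon 6 (7.88, control replicate 2), and Mapk14 (p38α) was called in its 3′ UTR at 4.19 in control replicate 1 and at 7.21 and 5.95 in the starved libraries. Mapk3 (ERK1) was called in control replicate 2 alone, at 18.09 in coding exon 2 and at 2.82, the lowest fold enrichment of any member peak, in its 3′ UTR.

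Mapk6, which encodes the atypical kinase ERK3, held 2 regions in all 4 libraries that were ordered in opposite directions. In exon 2, where the 5′ UTR ends and the coding sequence begins (chr9:75397579-75398751), fold enrichments were 6.75, 3.72, 17.34 and 28.38. Both starved values were above both control values, and the log2 means were 2.33 ± 0.61 and 4.47 ± 0.50, a difference of 2.15. In exon 6, the last one (chr9:75386992-75389147), they were 40.89, 26.74, 15.19 and 9.64. There the control libraries were the higher, with log2 means of 5.05 ± 0.43 and 3.60 ± 0.46 and a difference of -1.45. With any library left out the differences stayed between 1.72 and 2.58 in exon 2 and between -1.78 and -1.12 in exon 6. The exon 2 region no longer counted as called in all 4 libraries when 4-fold enrichment or a false discovery rate under 20% was required, with 3.72 in control replicate 2 and rates of 20.6% and 22.2% in the control libraries, so the opposite order of the 2 regions rests on peaks that those limits remove. Among the 269 genes of the whole series with at least 2 regions in all 4 libraries, 22 (8.18%) had both a higher and a lower one.

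Mapk7 (ERK5) had a region over coding exons 4 and 5 in all 4 libraries at 67.75, 15.22, 25.68 and 23.97, with 1 control value far above and 1 below the starved pair. Its difference of -0.37 was within the spread (exact permutation p = 1). The highest fold enrichment of the tier was in Mapk11 (p38β), 84.15 in starved replicate 1, at a place in its 3′ UTR where control replicate 1 stood at 52.16. Mapk13 (p38δ) was called once, at 8.28 in starved replicate 2.

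Of 6 genes of scaffold and MAPK-interacting proteins, 4 had a peak and none had a region in all 4 libraries. Mapk8ip3 (JIP3), a JNK scaffold, held 5 regions, of which 3 had their centre outside the exons of the coding transcripts used for placement. The strongest of these was called at 133.43 in control replicate 2 and 48.59 in starved replicate 1, and its neighbour at 92.91 and 14.72 in those libraries. Mapk1ip1l was called in the starved libraries alone in its 3′ UTR (chr14:47319412-47320693), at 9.91 and 13.45. A further region of that 3′ UTR, called at 7.87 in control replicate 1 and 10.01 in starved replicate 1, has a near-identical copy elsewhere in the genome and is uncertain. Mapk1ip1 was called at 94.84 in control replicate 1 and at 17.12, in another place, in starved replicate 1, and Mapk8ip1 (JIP1) at 10.36 in starved replicate 2.

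Of 10 classical MKP genes, 8 had a peak. The immediate early gene Dusp1 (MKP-1) was called in exon 1, across the 5′ UTR and the start of the coding sequence (chr17:26507957-26508519), at 25.72, 17.08, 28.53 and 46.44. Both starved values lay above both control values, with log2 means of 4.39 ± 0.42 and 5.19 ± 0.50 and a difference of 0.80. The difference was 0.44 without starved replicate 2 and 0.50 without control replicate 2. The peak scores did not share this order, since both control scores (3100 and 2332) exceeded both starved scores (718 and 1468). Dusp4, an inducible nuclear phosphatase, was called in the starved libraries alone, but in different places, at 80.0 by the stop codon and at 14.26 in coding exon 1. Dusp5, a nuclear phosphatase specific for ERK, was called in its 3′ UTR once in each group, at 5.92 and 12.16.

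Dusp6 (MKP-3), the cytoplasmic feedback phosphatase of ERK, was called in the control libraries alone. Coding exon 1 (chr10:99263577-99264091) stood at 9.37 and 9.85 in control replicates 1 and 2, and further peaks at 7.97 and 6.21 were called in control replicate 2 in exon 2 and at the stop codon. No Dusp6 peak was called in a starved library. The related Dusp7 and Dusp9 were called in both groups, Dusp7 at 11.62, 13.38 and 5.87 in the coding sequence of control replicates 1 and 2 and starved replicate 1, and Dusp9 in coding exon 3 at 22.17 in control replicate 2 and 19.69 in starved replicate 1. Dusp6, Dusp7 and Dusp9 had no peak in starved replicate 2, the library with the fewest peaks. Dusp5, which is also directed at ERK, was called in that library at 12.16.

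Dusp16, a phosphatase of JNK and p38, had the widest gap in the direction of control. A region of 400 bp next to the stop codon in the last exon (chr6:134717501-134717900) was called at 132.76, 63.31, 30.26 and 10.87. Both control values were above both starved values, with log2 means of 6.52 ± 0.76 and 4.18 ± 1.04 and a difference of -2.34, between -3.08 and -1.60 with any library left out. The peak of starved replicate 2 had a false discovery rate of 39.1%, so that under a limit of 20% the region was no longer called in all 4 libraries. The region holds no GGAC. A coding region of the same exon was called in replicate 1 of each group, at 38.43 and 16.48. Dusp10, which acts on the same branches, was called in its 3′ UTR at 4.93, 15.07, 19.26 and 3.53, with 1 high and 1 low library in each group and a difference of -0.06 (exact permutation p = 1).

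Of 14 atypical DUSP genes, small phosphatases without the MAPK-binding domain of the classical MKPs, 7 had a peak. Dusp23 had the highest fold enrichment of any member peak. It was called at its stop codon (chr1:172631266-172631826) in the starved libraries alone, at 182.96 and 82.44, both with scores at the limit. Dusp3 (VHR), which acts on ERK and JNK, was called in its 3′ UTR (chr11:101972330-101974265) at 13.07, 10.19, 15.37 and 14.98. The starved values lay just above the control values, by 0.39 on the log2 scale (3.53 ± 0.25 against 3.92 ± 0.03), and by 0.06 when the mean in place of the higher of 2 peaks of starved replicate 1 was taken. Without control replicate 2 the difference was 0.22.

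Dusp14, called in its coding sequence in 3 libraries, stood at 3.64 in control replicate 1 and at 12.86 and 42.85 in the starved libraries. Dusp18 held 3 regions, of which 1 in the 3′ UTR was called at 14.20 in control replicate 1 and at 9.51 and 7.29 in the starved libraries. Both genes lacked a peak in control replicate 2, and they pointed in opposite directions. Dusp11, which acts on RNA 5′ triphosphates rather than on MAPKs, and Dusp19 and Dusp28 ranged from 7.18 to 31.70, with no region called in more than 1 library.

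The 27 genes that match the rule and had no peak under their current symbol were Map4k1, Map4k3 and Map4k5, then Map3k1, Map3k5, Map3k7cl, Map3k9, Map3k15, Map3k19, Map3k20 and Map3k21, then Map2k6, Mapk4, Mapk8, Mapk10, Mapk12, Mapk15 and Mapk8ip2, and Dusp2, Dusp8, Dusp12, Dusp13, Dusp15, Dusp21, Dusp22, Dusp26 and Dusp27. By tier, the share of genes with a peak ran from 2 of 5 MAP4Ks to 6 of 7 MAP2Ks.

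Genes that feed into the cascade or are regulated by it were taken from 4 lists of 63 genes, of which 56 had a peak, in 136 regions. Of these regions 5 (3.68%) were called in both starved and in neither control library, and 9 (6.62%) in both control and in neither starved library. Among the first were Ptpn11, of the list of growth factor inputs, and Pak2, Traf2 and Rac1, of the list of JNK and p38 inputs. The list of inhibitors of Ras signalling, 13 genes of the Sprouty, Spred and RasGAP families, was called in 11 genes and 26 regions, with 16, 15, 11 and 5 peaks in the 4 libraries. Of its regions 5 (19.2%, background 4.15%) were called in the control libraries alone, and none in the starved libraries alone. The list was chosen with earlier results of these data known and was not tested as a set, so these counts are a description only.

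These were in Spry1 (22.62 and 11.93), Spry2 (10.16 and 6.18), Spry4 (25.71 and 14.13), Spred3 (7.02 and 3.94) and Nf1 (3.46 and 5.50). Sprouty proteins are, like Dusp6, feedback inhibitors of the ERK branch. Spred2, of the same list, was called in all 4 libraries and lay in the other direction, at 11.12, 11.11, 33.21 and 25.89. Further regions called in control alone were in Mapkapk3, a kinase activated by p38 (18.06 and 30.14), Taok2 (6.13 and 8.10) and Taok3 (37.19 and 47.54). The 4 lists held 11 regions called in all 4 libraries. In both starved libraries 2 of them were higher and 3 lower, where the backgrounds were 22.9% and 18%. The lower ones were in Sos1 (458.63, 668.96, 201.66 and 436.18), Traf6 (164.94, 52.83, 34.46 and 25.19) and Taok3 (556.03, 815.18, 456.98 and 470.67). The higher ones were that of Spred2 and a region of Gadd45g, whose product binds Map3k4 (8.54, 4.91, 15.20 and 15.29 in Gadd45g).

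**Figure D5:**
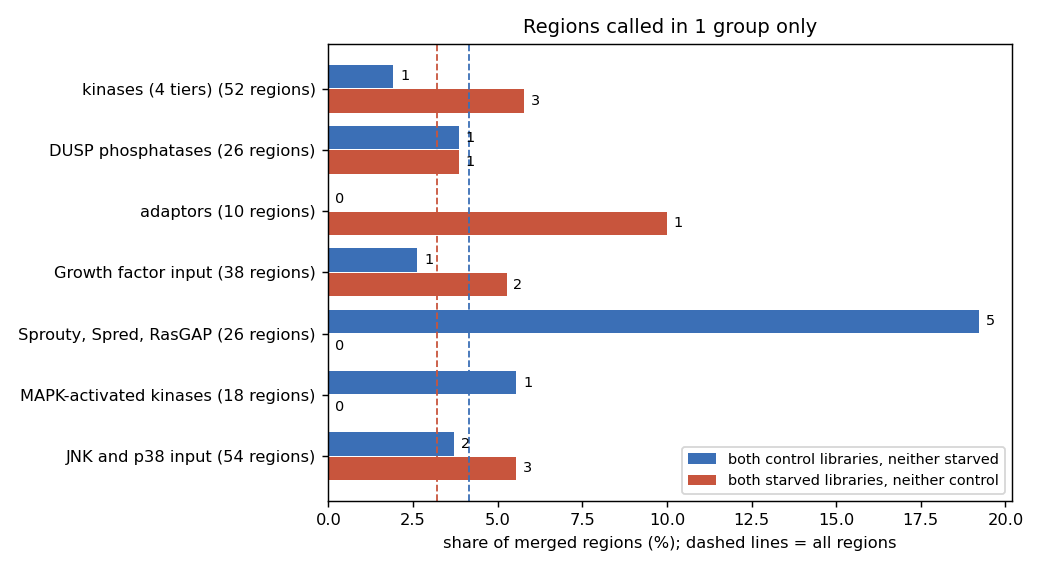
Bars give the share of merged regions (%) called in the 2 libraries of a single group, for 3 sets of members and 4 lists of other pathway genes, with the count at the end of each bar. Dashed lines mark the shares over all regions (4.15% control in blue, 3.2% starved in red), and the blue bar of the Sprouty, Spred and RasGAP list is the longest, at 5 of 26 regions. The lists were chosen with earlier results of these data known.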

How the data were processed

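MeRIP-seq peak lists of the 4 IP libraries were used, grouped by the treatment in the sample titles. The input libraries served as background in the authors' peak calling. According to the methods and the submitters' processing notes, the authors trimmed reads, aligned them to mm10 with HISAT2 2.0.4, called peaks per IP library with MACS2 and kept those on mRNA exons. The column names are those of an older MACS, so the caller's version is uncertain. The deposited fold enrichment is, for each peak, the ratio of its IP signal to the input around it. The deposited score is minus 10 times log10 of the p-value, with a limit of 3100. The authors give a false discovery rate in percent with each peak, and no member peak had a rate below 7.52%. The deposited table of differential sites holds the authors' own comparison (fold changes and p-values between groups) and was not used. Columns of per-sample values that could not be mapped numbered 0. Depths are not in the files, so no counting error or detection limit could be given.

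Peak starts were raised by 1 bp to count from 1. Peaks overlapping by 1 bp were merged, and a region took the highest fold enrichment per library. Peaks were placed by their centre on GENCODE M21 coding transcripts, 149 of 158 member peaks. Copies of regions were sought with blastn 2.17.0 (95% identity over 90% of the length). Analyses used Python 3.11.15, numpy 2.4.6, pandas 2.3.3, matplotlib 3.10.9 and samtools 1.23.1. The library was the unit of replication, with two-sided exact permutation over 3 splits between groups and exact sign flips over 4 libraries within them. 15 of 15 quantities were recovered from simulated data with 2000 regions. The members and gene lists were chosen with earlier results of these data known. Named were members with regions in 1 group alone or with groups that do not overlap, the gene with the most regions and the one with the highest fold enrichment of each tier, and the ERK, MEK, JNK, p38 and feedback MKP genes. Other members were named after their values were seen. Some genes are not reported here by name. Alternatives were stricter peak sets, other overlaps, windows and members, each library left out, and a replicate block.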

Additional observations from a re-analysis of the deposited data

How the results depend on the processing

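With peaks of a false discovery rate under 20%, 7 member regions were in all libraries. In both starved libraries 3 of them were higher and 1 lower, where the backgrounds were 20.2% and 22.6%. With these peaks GGAC windows differed by 5.20 points in favour of starved libraries (-0.84 with all peaks), and DUSPs exceeded kinases by 0.21 (log2). With peaks of at least 4-fold enrichment that last value was 0.034. GGAC in 100 bp gave 1.13 points, and a window of 200 nt at the stop codon gave -9.64. With genes under older names, members minus all peaks differed between groups by -0.025, and 4 of 14 regions in all libraries were lower (background 18%). Dusp3 differed by 0.06 with the mean fold of a region. Leaving out 1 library gave ranges of -5 to 11 for member peaks, -0.5 to 6.5 for member genes, -0.16 to 0.33 for members minus all peaks, -9.83 to 8.15 points for GGAC, 5.83 to 20.8 points for the score limit and -0.16 to 0.17 for DUSPs minus kinases. It gave 5 to 22 regions in starved libraries alone, 2 to 19 in control libraries alone, 6 to 8 higher and 2 to 5 lower regions, where fewer libraries have to meet the rule. Their backgrounds moved too, to 19.9% for starved alone without starved replicate 2 and to 22.4% for control alone without control replicate 1. The backgrounds were 36.7% to 40.1% for higher and 27.9% to 34.6% for lower regions, over all regions in every library kept. Member regions in every library kept numbered 10 to 14. For the 7 regions whose groups did not overlap, the 73 values that the alternatives gave kept their direction. Leaving out a library cannot turn the sign of such a region, and most other alternatives left its value unchanged. The kept direction thus follows mostly from how these regions were picked and is no test of them. For the 4 regions whose groups overlapped, 8 of 42 took the other sign. Some alternatives gave no value, since the region lost a peak, and with a false discovery rate under 20% these were Mapk6 exon 2, Map4k4 exon 12, Dusp16 and Dusp10. The median log2 fold enrichment of member peaks kept its sign under every alternative run, with 0.11 to 0.59 when a library was left out. With all peaks the groups did not overlap, so leaving out a library could not turn this sign. The groups did overlap with 4-fold peaks, equal peak numbers, no adaptor genes or genes under older names (exact permutation p = 0.667 each). They also overlapped with a false discovery rate under 20%, where the difference was 0.29.

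The replicate numbers are shared by the groups, but deviations of same-numbered libraries did not move together over the 2257 regions in all libraries (r = -0.017, across regions, which are not independent), so no pairing was used. The replicate block changes how the p-value is computed and not the difference between group means. The differences in member peaks (3), median log2 fold enrichment (0.35) and peaks at the score limit (13.3 points) thus stayed the same by construction. Depth is unknown, so whether a missing peak reflects few reads was not tested.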

Other observations

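Some kinases of the cascade are listed under symbols that the rule does not take, among them Zak, Taok1 and Mink1, and these were not counted among the members. Zak, the kinase now named Map3k20 that responds to stalled ribosomes, had peaks in all 4 libraries and 5 regions, all on chromosome 2. At chr2:72398290-72398554 fold enrichment was 56.06 and 51.41 under control conditions and 23.07 and 13.42 after starvation. At chr2:72403228-72404183 it was 13.44 and 16.86 against 10 and 5.58. Both regions were lower in both starved libraries. At chr2:72441592-72442031 the control values of 91.05 and 54.61 overlapped the starved values of 148.03 and 57.97. With 2 libraries per group these orders could not be tested below p = 0.333 (exact permutation).

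Taok1 (Map3k16) had 8 regions between 2.31 and 20.80, none in all 4 libraries and none confined to both libraries of 1 group. Mink1 (Map4k6) had 4 regions, each called in a single library. Those of control replicate 2 stood at 26.76 and 7.95, that of starved replicate 1 at 39.92 and that of starved replicate 2 at 75.12. Control replicate 1 had no Mink1 peak.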
